A study of Mus musculus with 9 samples.

Results

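Transcripts of haemoglobin and of the red cell's haem and membrane genes were measured in 9 RNA-seq libraries of tissue labelled as mouse hippocampus. The 7 genes described were chosen by symbol: the alpha-globin genes Hba-a1 and Hba-a2, the beta-globin genes Hbb-bs and Hbb-bt, Alas2, Slc4a1 and Bpgm. They are 7 of the 54513 genes in the deposited table, and all 7 were among the 18690 genes tested. The mice of all 3 groups, with 3 libraries each, ate a high-fat diet for 12 weeks. The Trp group had tryptophan, an amino acid, mixed into this diet at 0.5% by weight. The IPA group was given indole-3-propionic acid (IPA), which gut bacteria make from tryptophan, by mouth each day at 100 mg per kg. The HFD group had the diet alone, and no mice on ordinary chow were among the libraries. Route and dose differ between Trp and IPA, and no saline gavage is described for the HFD or Trp mice. The labels give no strain, sex or age. The columns of Trp, IPA and HFD carry the codes HOB, HEB and WTB, which the labels pair with the samples but do not explain. Whether these columns hold the mice of the diet experiment or another series, such as one of genotypes, cannot be told from the labels or the table, so group names follow the labels.

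Haemoglobin carries oxygen in red cells and is built of alpha and beta chains, each of which holds a haem group. Alas2 makes aminolevulinate, the first and rate-limiting step of haem synthesis in red cell precursors. Slc4a1 is the anion exchanger of the red cell membrane, which trades chloride for bicarbonate, and Bpgm makes bisphosphoglycerate, which lowers the oxygen affinity of haemoglobin. Circulating red cells have no nucleus, but the youngest of them, the reticulocytes, still carry globin messenger RNA, so blood left in the vessels adds globin transcripts to a tissue sample. Globin transcripts have also been described in some neurons and glia. Whether blood was rinsed from the brains is not given in the sources used here. In bulk tissue, fewer cells of a type and less RNA per cell cannot be told apart.

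Total counts were 40660032 to 50938746 in the Trp libraries, 40621084 to 42565593 in the IPA libraries and 43111819 to 50385774 in the HFD libraries. Levels are given as CPM, counts scaled to a library size adjusted by TMM, a scaling that lines up the bulk of genes between libraries. A library with 0 counts of a gene could still hold up to 0.0584 to 0.0751 CPM of it, by counting error alone. Of the 12 dentate and CA field markers all 12 were tested, and their summed level was 447 to 549 CPM in Trp, 511 to 522 CPM in IPA and 499 to 572 CPM in HFD. Markers of striatal neurons summed to 1967 to 2833 CPM in Trp, 2767 to 3694 CPM in IPA and 902 to 2823 CPM in HFD, with the lowest sum in HFD 3, and none of either list passed the test in any comparison. HFD 3 stood apart from the other 8 libraries. It lay at -58.3 on the first principal component, against -17.0 to 29.4 for the others, and held 11.1 CPM of the dopamine transporter Slc6a3, against 0.168 to 0.751 CPM. Results that rest on HFD 3 are given with and without it. The p-values measure the spread between libraries, and the labels do not say whether each library is 1 mouse or a pool.

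The paired globin genes are near-identical copies, so their counts depend on how the authors' counting split shared reads. The coding sequences of Hba-a1 and Hba-a2 (426 bases) differ at 1 base, and those of Hbb-bs and Hbb-bt (441 bases) also at 1 base, an identity of 99.8% in each pair in GENCODE M21 transcripts. The stretch around each difference is shown because only reads that cross such a base, or reach beyond the coding part, can tell the copies apart. Capitals mark the differing base, positions count from 1 at the first coding base, the alpha stretch runs over coding bases 351 to 410 and the beta stretch over 382 to 441.
Hba-a1, chr11:32284313-32284372, plus strand, GRCm38: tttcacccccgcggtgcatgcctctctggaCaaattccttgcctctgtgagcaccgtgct
Hba-a2, chr11:32297130-32297189, plus strand, GRCm38: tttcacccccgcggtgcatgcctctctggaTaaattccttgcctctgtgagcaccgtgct
Hbb-bs, chr7:103826668-103826727, minus strand, GRCm38: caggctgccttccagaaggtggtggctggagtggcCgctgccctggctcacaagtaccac
Hbb-bt, chr7:103812659-103812718, minus strand, GRCm38: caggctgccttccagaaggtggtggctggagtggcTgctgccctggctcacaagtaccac
The alpha copies differ as C381T and the beta copies as C417T, with the base of the first-named gene first. Of all stretches of 100 coding bases, 85.9% were shared by the alpha copies and 92.7% by the beta copies. Each pair was therefore also tested as a summed count, which does not depend on the split.

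The 250 bases before the start of transcription are shown for members that moved together across libraries, with Bpgm for contrast, since its levels did not follow theirs. They are from RefSeq on GRCm38.p6, on the strand of the gene. Capitals mark 4 short motifs searched on both strands. These were the GATA motif (GATAA), the CACCC box (its own letters), the CAAT box (CCAAT) and the TATA motif (TATAA), also where they read on the opposite strand. Motifs that overlap or adjoin share a run of capitals.
Hba-a1, chr11:32283422-32283671, plus strand: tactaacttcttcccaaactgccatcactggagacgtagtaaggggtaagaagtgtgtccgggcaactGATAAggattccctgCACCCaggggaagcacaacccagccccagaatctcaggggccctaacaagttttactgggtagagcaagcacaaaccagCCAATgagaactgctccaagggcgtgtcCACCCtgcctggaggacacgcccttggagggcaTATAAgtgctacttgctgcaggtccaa
Hbb-bs, chr7:103827929-103828178, minus strand: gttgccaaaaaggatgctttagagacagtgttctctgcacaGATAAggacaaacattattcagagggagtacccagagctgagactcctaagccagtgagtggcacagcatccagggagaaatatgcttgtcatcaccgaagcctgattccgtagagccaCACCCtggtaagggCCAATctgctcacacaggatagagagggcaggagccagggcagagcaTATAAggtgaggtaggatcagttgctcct
Hbb-bt, chr7:103813924-103814173, minus strand: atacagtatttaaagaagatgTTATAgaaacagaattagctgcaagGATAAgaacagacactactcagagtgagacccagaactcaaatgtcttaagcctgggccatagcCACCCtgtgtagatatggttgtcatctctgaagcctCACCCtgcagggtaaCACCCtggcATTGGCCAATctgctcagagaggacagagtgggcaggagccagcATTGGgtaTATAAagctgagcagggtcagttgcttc
Alas2, chrX:150547167-150547416, plus strand: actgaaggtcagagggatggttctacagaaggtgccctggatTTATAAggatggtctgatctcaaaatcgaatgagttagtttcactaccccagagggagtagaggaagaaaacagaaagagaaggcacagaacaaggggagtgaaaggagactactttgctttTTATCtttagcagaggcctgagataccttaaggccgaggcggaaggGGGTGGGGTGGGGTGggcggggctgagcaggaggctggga
Bpgm, chr6:34476106-34476355, plus strand: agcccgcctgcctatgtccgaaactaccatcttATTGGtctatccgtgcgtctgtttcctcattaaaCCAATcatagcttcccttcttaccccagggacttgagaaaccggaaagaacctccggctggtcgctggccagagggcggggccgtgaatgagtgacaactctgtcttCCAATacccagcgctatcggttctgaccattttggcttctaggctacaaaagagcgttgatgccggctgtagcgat
Of the 7 genes 6 had an entry, and Slc4a1 was without one. The upstream sequence of Hba-a2 was the same as that of Hba-a1 over all 247 bases that the windows share. All 4 motifs occurred in the windows of the 4 globin genes, against 0.968% of all 32851 windows of this length. In each of these 4 windows a TATA motif lay 27 to 30 bases before the start. The window of Alas2 held all but the CAAT box, and of the 4 that of Bpgm held the CAAT box alone. Over all windows the GATA motif occurred in 22.6%, the CACCC box in 52.0%, the CAAT box in 33.9% and the TATA motif in 22.8%. A match of 5 letters describes the sequence only.

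On the FPKM scale (fragments per length and depth, as deposited), which corrects for gene length, the 4 globin genes were the most abundant of the 7. Within every library Hbb-bs was the highest of the 7. The mean level over the 9 libraries was 358 FPKM for Hbb-bs, 174 FPKM for Hba-a1, 154 FPKM for Hba-a2 and 146 FPKM for Hbb-bt. Bpgm followed at 31.8 FPKM, Alas2 at 2.55 FPKM and Slc4a1 at 0.0434 FPKM. The ranges of Hba-a1, Hba-a2 and Hbb-bt overlapped widely, at 71.5 to 574 FPKM, 67.1 to 517 FPKM and 52.2 to 559 FPKM, so their order is not separated by their spread. Bpgm (28.4 to 38.1 FPKM), Alas2 (0.625 to 8.78 FPKM) and Slc4a1 (0 to 0.122 FPKM) did not overlap each other or any globin gene. The table places the alpha genes on chromosome 11, the beta genes on chromosome 7, Alas2 on X, Slc4a1 on 11 and Bpgm on 6.

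**Figure D1:**
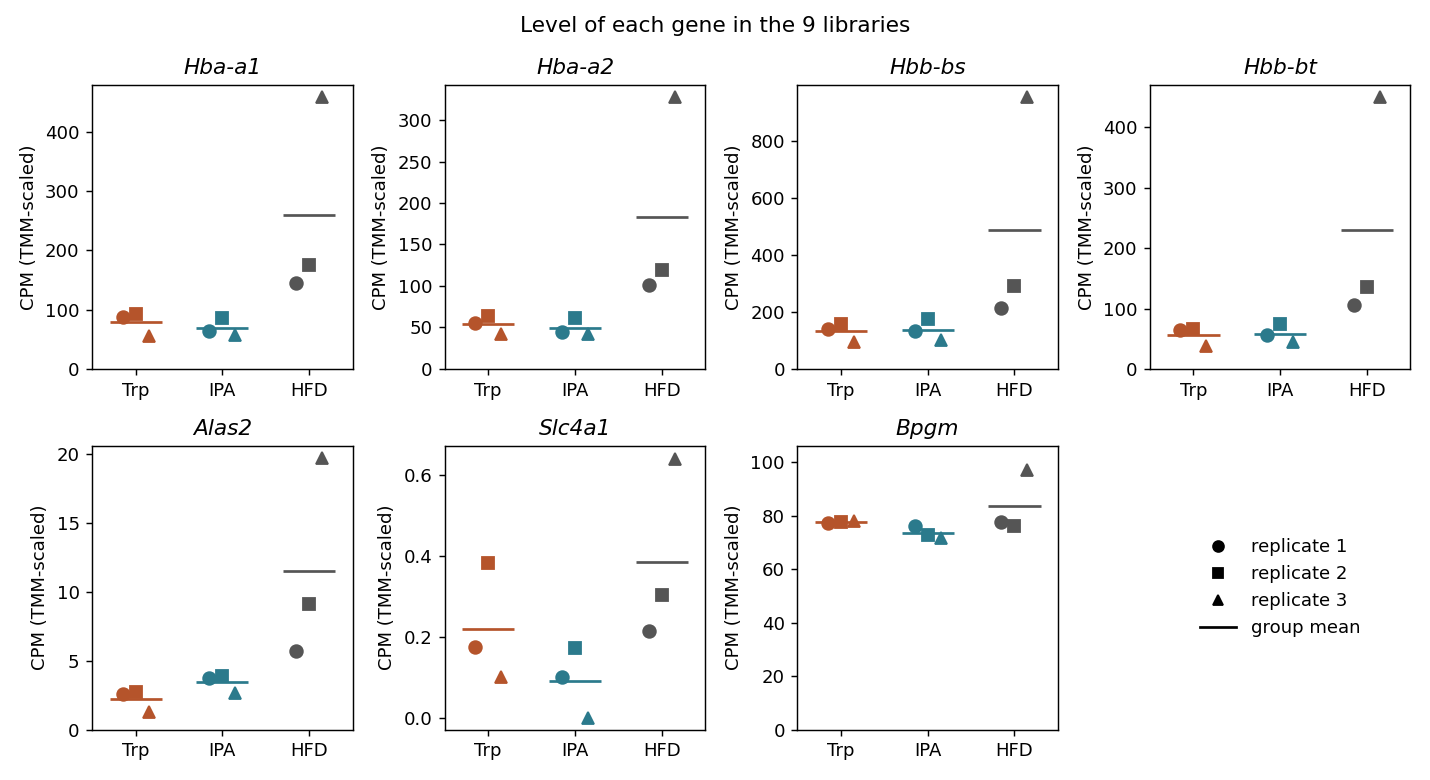
Level of each of the 7 genes in CPM (TMM-scaled, linear axis) in Trp, IPA and HFD libraries, with a point per library, a shape per replicate number and a line at the group mean. The 4 globin genes and Alas2 are lower in all Trp and IPA libraries than in all HFD libraries, HFD 3 is highest in every panel, and Bpgm lies between 71.8 and 97.0 CPM.

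Alpha-globin transcripts were less abundant in all Trp and all IPA libraries than in any HFD library. Hba-a1 had 88.3, 92.4 and 55.4 CPM in Trp 1 to 3 and 63.3, 86.1 and 56.8 CPM in IPA 1 to 3, against 145, 175 and 459 CPM in HFD 1 to 3. The Trp and IPA libraries shared 1 range, and HFD 3 lay far above the other HFD libraries. Hba-a2 had 55.8, 63.4 and 42.1 CPM in Trp, 44.5, 61.1 and 42.3 CPM in IPA, and 101, 119 and 328 CPM in HFD. Here too every Trp and IPA library lay below every HFD library. In the edgeR quasi-likelihood test Hba-a1 was 3.30-fold lower in Trp than in HFD (95% interval 1.46 to 7.45, adjusted p = 0.282) and 3.78-fold lower in IPA than in HFD (1.67 to 8.58, adjusted p = 0.332). Neither difference passed the adjusted threshold of 0.05, and neither did those of Hba-a2, at log2 changes of -1.76 (adjusted p = 0.268) in Trp and -1.89 (adjusted p = 0.332) in IPA. The summed alpha count gave -1.74 ± 0.49 (SE, adjusted p = 0.273) in Trp and -1.91 ± 0.49 (adjusted p = 0.330) in IPA.

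Beta-globin transcripts were also less abundant in all Trp and all IPA libraries than in any HFD library. Hbb-bs had 142, 157 and 96.4 CPM in Trp 1 to 3, 132, 174 and 102 CPM in IPA 1 to 3, and 215, 293 and 956 CPM in HFD 1 to 3. Hbb-bt had 64.4, 66.9 and 38.3 CPM in Trp, 56.0, 73.9 and 44.3 CPM in IPA, and 105, 136 and 450 CPM in HFD. For both genes every Trp and IPA library lay below every HFD library, and HFD 3 held more than 3 times the mean of HFD 1 and HFD 2 (3.76 and 3.74 times). Hbb-bs was 3.70-fold lower in Trp (95% interval 1.33 to 10.2, adjusted p = 0.336, edgeR) and 3.58-fold lower in IPA (1.30 to 9.92, adjusted p = 0.418) than in HFD. Hbb-bt was 4.07-fold lower in Trp (1.45 to 11.4, adjusted p = 0.315) and 3.96-fold lower in IPA (1.42 to 11.1, adjusted p = 0.392). The summed beta count differed by -1.93 ± 0.61 on the log2 scale in Trp (SE, adjusted p = 0.326) and by -1.89 ± 0.61 in IPA (adjusted p = 0.409). The wide intervals go with the spread in HFD, where the coefficient of variation was 83.4% for Hbb-bs and 82.9% for Hbb-bt, against 24.1% and 28.0% in Trp and 26.5% and 25.7% in IPA.

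Alas2 had the largest difference of the 7 genes between Trp and HFD in this fit. The Trp libraries 1 to 3 held 134, 115 and 65 counts of it (2.61, 2.75 and 1.31 CPM). The IPA libraries held 150, 158 and 114 counts (3.75, 3.90 and 2.70 CPM), and the HFD libraries 266, 451 and 829 counts (5.70, 9.10 and 19.7 CPM). Neither Trp nor IPA overlapped HFD. Alas2 was 5.17-fold lower in Trp than in HFD (95% interval 2.42 to 11.04), with an unadjusted p of 0.000994 and an adjusted p of 0.117 in edgeR's quasi-likelihood test, and 3.33-fold lower in IPA than in HFD (1.59 to 6.97, adjusted p = 0.327). In the authors' deposited table the log2 change of Alas2 in Trp was -2.37 with q = 0.00996, and it was called lower. Exons of Alas2 overlap those of Apex2, a DNA repair gene on the opposite strand, over 311 bases, and no strand marking is described for the libraries. Apex2 itself had 2.24 to 4.39 CPM in Trp, 2.98 to 4.02 CPM in IPA and 2.85 to 3.94 CPM in HFD, ranges that overlap.

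Slc4a1 was near the limit of detection. It gave 9, 16 and 5 counts in the Trp libraries, 4, 7 and 0 counts in the IPA libraries, and 10, 15 and 27 counts in the HFD libraries. The 0 of IPA 3 allows up to 0.0709 CPM. The Trp and HFD ranges overlapped, and the IPA libraries lay below the HFD libraries. The log2 change was -0.82 ± 0.71 in Trp (SE, adjusted p = 0.726, edgeR) and -2.06 ± 0.81 in IPA (adjusted p = 0.431).

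Bpgm differed little between groups. It had 77.1, 77.7 and 78.0 CPM in Trp 1 to 3, 76.3, 72.8 and 71.8 CPM in IPA 1 to 3, and 77.6, 76.0 and 97.0 CPM in HFD 1 to 3. All but HFD 3 lay within 71.8 to 78.0 CPM. The log2 change was -0.11 in Trp (95% interval -0.31 to 0.10, adjusted p = 0.744, edgeR) and -0.18 in IPA (-0.39 to 0.03, adjusted p = 0.532), and without HFD 3 it was 0.02 and -0.06. Outside red cells Bpgm is also transcribed in other tissues, and its level here was not tied to that of the globins in the libraries other than HFD 3, as given below.

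**Figure D2:**
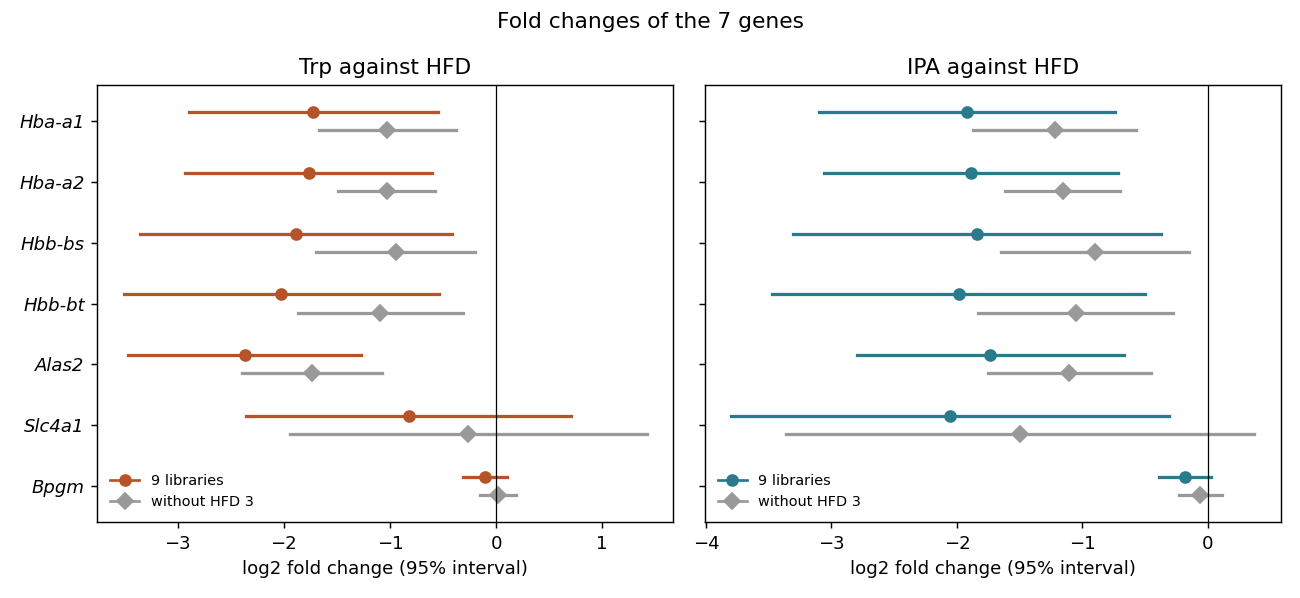
Log2 fold change of each gene in Trp against HFD (left) and IPA against HFD (right) from edgeR, with 95% intervals as lines, from all 9 libraries (coloured circles) and without HFD 3 (grey diamonds). The globin genes and Alas2 lie between -1.72 and -2.37 with 9 libraries, and the changes are smaller with narrower intervals without HFD 3, while Bpgm stays near 0.

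Counted over the 7 genes, none passed the adjusted threshold in Trp against HFD, where 0.342% of all tested genes passed. At an unadjusted p under 0.05 and lower in Trp were 5 of the 7, against 5.54% of all genes, and in 5 of the 7 every Trp library lay below every HFD library, against 7.43% of all genes. These 5 were the globin genes and Alas2. In IPA against HFD none of the 7 passed (0.00535% of all genes did, which is 1 gene), 6 were lower at an unadjusted p under 0.05 (5.46% of all genes) and 6 did not overlap HFD (8.01% of all genes). Only Bpgm was not among these 6. The median log2 change over the 7 genes was -1.76 in Trp and -1.89 in IPA, against -0.0022 and -0.0056 over all tested genes. Trp and IPA are set against the same 3 HFD libraries, so the 2 comparisons are not independent, and the 7 genes vary together and are not separate observations. The 7 genes were also chosen with earlier results of these data known, so their counts beside the shares of all genes are a description only.

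Which globin genes passed depended on the test. The DESeq2 Wald test called Alas2 (adjusted p = 0.000913), Hba-a1 (adjusted p = 0.0417) and Hba-a2 (adjusted p = 0.0347) lower in Trp, 3 of the 6 members to which it gave an adjusted p, while it called 0.758% of its genes lower. In IPA it called Hba-a1 (adjusted p = 0.0224) and Hba-a2 (adjusted p = 0.0260) lower, 2 of 6, with 0.485% of its genes called lower. The authors' deposited table called 1 of the 7 lower in Trp, Alas2, with 0.111% of the genes it tested called lower. It called none of the 7 in IPA (0.138% of genes called lower), where Hba-a1 had the smallest q of the 7, 0.0707. Slc4a1 was not tested in that table.

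HFD 3 set much of the size of these differences, while the globin genes and Alas2 were lower in Trp and IPA also without it. Its level was 2.87 times the mean of HFD 1 and HFD 2 for Hba-a1, 2.99 times for Hba-a2, 2.66 times for Alas2, 2.48 times for Slc4a1 and 1.26 times for Bpgm, on the CPM scale. With HFD 3 left out, Hba-a1 was 2.03-fold lower in Trp and 2.33-fold lower in IPA, and Hbb-bs was 1.92-fold lower in Trp and 1.87-fold lower in IPA. Alas2 was then 3.33-fold lower in Trp and passed the test (adjusted p = 0.0162, edgeR), and so did Hba-a2, 2.04-fold lower in Trp (adjusted p = 0.0469), with 0.826% of all genes called lower in Trp. In IPA none of the 7 passed without HFD 3 (0.12% of all genes called lower), the smallest adjusted p being 0.0787 for Hba-a2. With HFD 1 left out instead, Alas2 also passed in Trp, at a log2 change of -2.69 (adjusted p = 0.0409). What sets HFD 3 apart was not tested.

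Trp and IPA libraries were not told apart at any globin gene. The log2 change of Trp against IPA was 0.20 (95% interval -0.95 to 1.34) for Hba-a1, 0.12 (-1.02 to 1.27) for Hba-a2, -0.04 (-1.47 to 1.38) for Hbb-bs and -0.04 (-1.48 to 1.40) for Hbb-bt, with adjusted p-values of 0.989 to 0.998 in edgeR. These intervals are wide, from 1.94-fold lower to 2.54-fold higher in Trp for Hba-a1 and from 2.77-fold lower to 2.61-fold higher for Hbb-bs, and they do not show that the groups are alike. Alas2 was at -0.63 (-1.73 to 0.46, adjusted p = 0.987) and Slc4a1 at 1.23 (-0.59 to 3.06, adjusted p = 0.987). Bpgm was slightly higher in all Trp than in all IPA libraries, at 77.6 ± 0.458 CPM in Trp and 73.6 ± 2.36 CPM in IPA (SD, n = 3 each), with a log2 change of 0.08 and an adjusted p of 0.987 in edgeR. None of the 7 passed. In edgeR no gene of the 18690 did (0% called), against 15 in DESeq2. Of the 7, 0 had an unadjusted p under 0.05 (4.49% of all genes). Groups that do not overlap, with Trp higher, occurred in 1 of the 7, Bpgm, and in 5.61% of all genes.

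The proportions among the globin transcripts varied far less than their levels. Of the alpha counts, Hba-a1 made up 61.3%, 59.3% and 56.8% in the Trp libraries, 58.7%, 58.5% and 57.3% in the IPA libraries, and 59.0%, 59.6% and 58.3% in the HFD libraries. Hbb-bs made up 68.8%, 70.2% and 71.6% of the beta counts in Trp, 70.2%, 70.2% and 69.8% in IPA, and 67.1%, 68.4% and 68.0% in HFD. Every Trp and IPA library lay above every HFD library in this share, which was formed after the levels had been seen and is given without a test. The widest exact binomial 95% interval of a single library ran from 55.8% to 58.8% (Hba-a1 in IPA 3), which covers counting error only. The split between copies also depends on the counting of shared reads, whose rule is not given in the sources used here. Summed beta over summed alpha, on the FPKM scale, was 1.40, 1.40 and 1.34 in Trp, 1.70, 1.64 and 1.43 in IPA, and 1.26, 1.42 and 1.73 in HFD, so both groups overlapped HFD.

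Set against the globin counts of the same library, Alas2 was lower in Trp than in the other groups. There were 7.45, 7.24 and 5.64 Alas2 counts per 1000 globin counts in Trp 1 to 3, 12.7, 9.86 and 10.97 in the IPA libraries, against 10.1, 12.6 and 8.98 in the HFD libraries. No Trp library reached the lowest IPA or HFD library. This ratio was formed after the levels had been seen and is given without a test. The exact binomial 95% interval was 6.24 to 8.83 in Trp 1, the highest Trp library, and 8.38 to 9.61 in HFD 3, the lowest HFD library, so these 2 overlap by counting error. Slc4a1 gave 0.500, 1.01 and 0.434 counts per 1000 globin counts in Trp, 0.338, 0.437 and 0 in IPA, and 0.379, 0.419 and 0.292 in HFD.

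**Figure D3:**
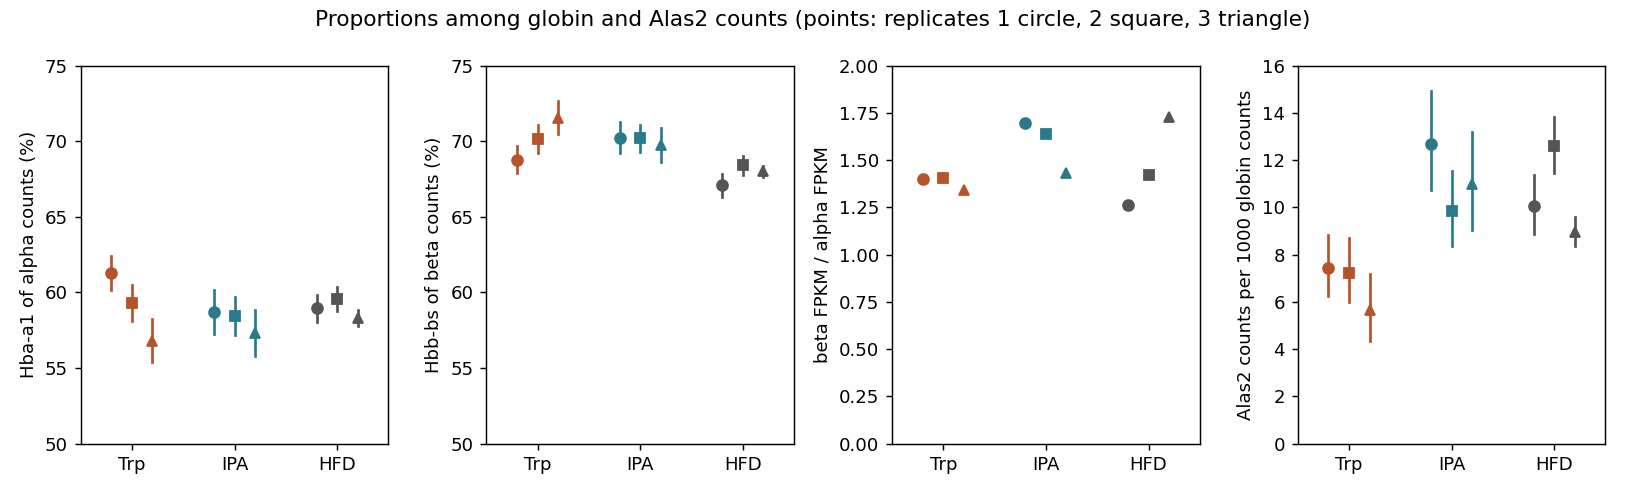
Proportions in each library by group: Hba-a1 as a percentage of alpha-globin counts, Hbb-bs as a percentage of beta-globin counts (both axes start at 50%), beta over alpha globin in FPKM, and Alas2 counts per 1000 globin counts. Points are libraries, with shapes for replicate numbers, and lines are exact binomial 95% intervals that cover counting error only. The shares stay within 56.8% to 61.3% and 67.1% to 71.6%, and Alas2 per globin count is lower in the 3 Trp libraries than in the other 6.

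The globin genes varied together from library to library, while the ratio of the highest to the lowest library differed between genes. That ratio, in CPM, was 8.29 for Hba-a1, 7.79 for Hba-a2, 9.92 for Hbb-bs, 11.7 for Hbb-bt, 15.03 for Alas2 and 1.35 for Bpgm. HFD 3 was the highest library for all 7 genes, and Trp 3 was the lowest for the globin genes and Alas2. Over the 9 libraries, Pearson's r of log2 CPM between globin genes was 0.985 to 0.998, described without a test since the libraries share their groups. Between an alpha and a beta gene it was 0.985 to 0.991. Within the alpha pair (0.997) and the beta pair (0.998) it also depends on how shared reads were split. With the mean of the 4 globins, r was 0.943 for Alas2 and 0.774 for Slc4a1. Without HFD 3 (n = 8) these were 0.887 and 0.695. Bpgm had r = 0.830 over 9 libraries, with Spearman's rho of 0.183, and 0.189 without HFD 3, so its relation rests on that library.

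The 10 genes whose log2 CPM followed the globin mean most closely, of 11789 considered, were Myoc (r = 0.989), S100a4 (0.980), Slc14a1 (0.965), Tshz2 (0.958), Tagln2 (0.956), Dcaf12 (0.952), Cav1 (0.945), Bri3bp (0.934), Satb1 (0.930) and Bcl2l2 (0.924), over 9 libraries. HFD 3 was the highest library in all 10. Myoc, which encodes the secreted protein myocilin, averaged 2.85 CPM in Trp, 2.55 CPM in IPA and 9.50 CPM in HFD, with log2 changes of -1.73 in Trp (adjusted p = 0.272, edgeR) and -1.89 in IPA (adjusted p = 0.330). Slc14a1, a urea transporter of red cells that astrocytes also make, averaged 7.06 CPM in Trp, 6.80 CPM in IPA and 10.8 CPM in HFD, and its r was 0.887 without HFD 3. With HFD 3 left out, 3 of these 10 were still among the 10 closest, Myoc (0.964), Bri3bp (0.939) and S100a4 (0.930).

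**Figure D4:**
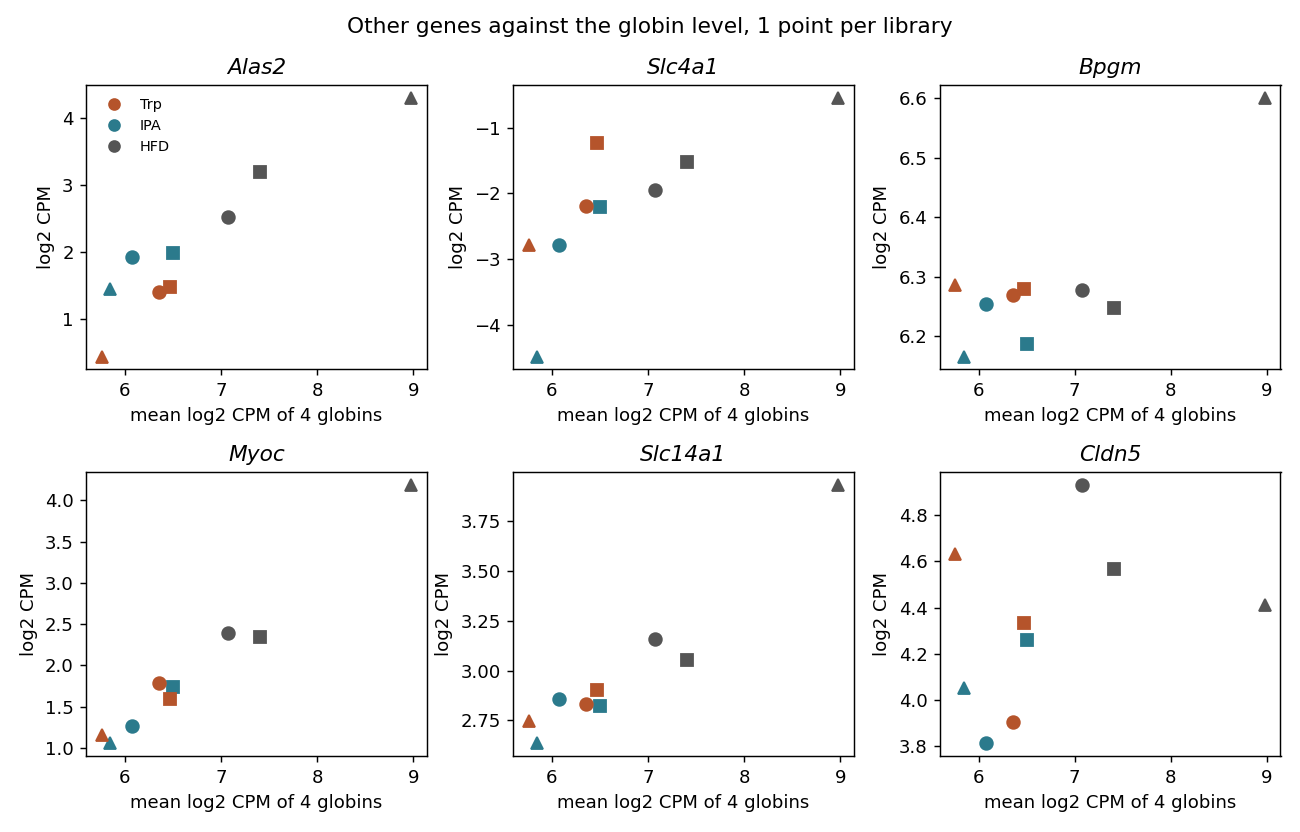
Log2 CPM of 6 genes (vertical axes) against the mean log2 CPM of the 4 globin genes (horizontal axes), with a point for each of the 9 libraries, coloured by group and shaped by replicate number. Alas2, Slc4a1, Myoc and Slc14a1 are higher where the globins are higher, and Bpgm is flat except for HFD 3. The endothelial gene Cldn5 follows the globins less closely (r = 0.351, and 0.513 without HFD 3). Cldn5 is 1 of 12 endothelial markers and does not stand for that list.

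Other genes of the red cell and of haem were mostly level between groups. Of 15 tested genes of haem synthesis used by most cells, none passed in any comparison, and the median log2 change was 0.04 in Trp and 0.05 in IPA against HFD. Alas1, the form of Alas2 used outside red cells, averaged 29.7 ± 1.13 CPM in Trp, 26.7 ± 3.14 CPM in IPA and 24.9 ± 3.00 CPM in HFD (SD, n = 3 each), with a log2 change of 0.25 in Trp (adjusted p = 0.432, edgeR). Clpx, part of a mitochondrial protease that acts on haem synthesis enzymes, was at 0.30 in IPA (adjusted p = 0.345). Of 14 genes of haem breakdown and transport none passed. Hmox2, the constitutive haem oxygenase, averaged 64.2 ± 1.89 CPM in Trp and 51.1 ± 1.10 CPM in HFD, a log2 change of 0.33 (adjusted p = 0.225). Hp, which binds free haemoglobin, had 5 to 34 counts in Trp, 9 to 18 counts in IPA and 3 to 7 counts in HFD. On the CPM scale its IPA libraries lay above all HFD libraries and its Trp libraries overlapped them, and neither difference passed (adjusted p = 0.341 in Trp and 0.501 in IPA, edgeR).

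Haemoglobin-like genes of other cells did not follow the red cell globins. Of 10 other globin genes listed, 9 were in the table and 5 were tested, and none passed. Neuroglobin, Ngb, had 8.09 to 10.9 CPM in Trp, 6.71 to 11.1 CPM in IPA and 8.13 to 9.38 CPM in HFD. Cytoglobin, Cygb, had 52.0 to 62.5 CPM in Trp, 49.9 to 60.3 CPM in IPA and 57.0 to 61.2 CPM in HFD, and both overlapped between all groups. The embryonic globins Hba-x, Hbb-bh1 and Hbb-bh2 had 0 counts in all 9 libraries, and Hbb-y had 0 to 13. The theta globins Hbq1a and Hbq1b had 6 to 19 and 3 to 15 counts per library, and myoglobin, Mb, had 10 to 27. HFD 3 was the highest library in CPM for Hbq1b and Mb.

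Of 25 genes of the red cell membrane and of red cell maturation 15 were tested, and none passed, with median log2 changes of -0.04 in Trp and 0.06 in IPA. Neurons and glia also express many of them, such as Epb41, a membrane skeleton protein, which averaged 48.2 CPM in Trp, 50.4 CPM in IPA and 36.8 CPM in HFD (log2 change 0.45 in IPA, adjusted p = 0.296, edgeR). Genes that are closer to red cells alone were near 0. Epb42, a protein of the red cell membrane skeleton, had 0 to 4 counts and Rhag, of the Rh complex, 0 to 3, and the blood group gene Kel had 0 in every library. Of 12 regulators of red cell formation 8 were tested and none passed. Gata1, Klf1, Gfi1b, Nfe2, Kel and Rhag, which mark nucleated precursors, summed to 0 to 11 counts per library, against 10390 to 92324 globin counts. Tal1, a factor of red cell and endothelial cells, averaged 0.719 CPM in Trp, 0.798 CPM in IPA and 1.53 CPM in HFD, with a log2 change of -1.07 in Trp (adjusted p = 0.267). Steap3, a ferric reductase, was at -0.40 in IPA (adjusted p = 0.449) and Ikzf1, a lymphoid and erythroid factor, at 0.49 in Trp (adjusted p = 0.316).

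Among the relatives of Slc4a1 and Bpgm, 1 gene passed. Slc4a11, a membrane transporter of the Slc4 family, rose in Trp, to 2.42 to 4.07 CPM against 0.514 to 1.21 CPM in HFD (log2 change 1.95 ± 0.31, SE, adjusted p = 0.0216, edgeR). In 6 of 16 alternatives it missed the threshold, with adjusted p-values up to 0.139, among them those without HFD 1, IPA 2, Trp 1 or Trp 2. It was 1 of 9 tested members of that family, against 0.342% of all tested genes that passed in Trp. The IPA libraries of Slc4a11, at 1.98 to 2.44 CPM, also lay above all HFD libraries, and that difference did not pass. Slc4a7, a bicarbonate cotransporter, stood at -0.43 in Trp (adjusted p = 0.319, edgeR). Of 9 tested genes around the phosphoglycerates of glycolysis, Bpgm included, none passed in any comparison. Minpp1, a phosphatase that can act on bisphosphoglycerate, was at -0.14 in Trp against HFD (adjusted p = 0.565), and Pgk1, phosphoglycerate kinase, at 0.14 in Trp against IPA (adjusted p = 0.987).

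Markers of other blood cells and of vessels are set beside the globin result. Summed neutrophil markers were 1.13 to 1.42 CPM in Trp, 0.751 to 1.18 CPM in IPA and 1.33 to 1.69 CPM in HFD, with S100a8 at 0 to 4 counts, S100a9 at 0 to 6 and Camp at 0. Of 12 such genes 2 were tested, and none passed. Lcn2, an iron-siderophore binding protein that other cells also make, was 1 of these 2, with 5, 11 and 5 counts in the Trp libraries, 5, 7 and 2 counts in the IPA libraries, and 13, 12 and 23 counts in the HFD libraries. All its IPA libraries lay below all HFD libraries in CPM, HFD 3 was the highest, and the log2 change was -1.22 in Trp (adjusted p = 0.470, edgeR) and -1.60 in IPA (adjusted p = 0.430). Of 12 lymphocyte genes 5 were tested and none passed. Their summed level was 93.5 to 107 CPM in Trp, 89.3 to 98.6 CPM in IPA and 44.9 to 90.3 CPM in HFD. Most of it came from Ighm, Cd4 and Trbc2, while Cd3e had 0 to 12 counts and Cd79a 0 to 6. Of 12 platelet genes 7 were tested and none passed, at 841 to 1042 CPM in Trp, 863 to 981 CPM in IPA and 720 to 1062 CPM in HFD, nearly all from Nrgn, which neurons express. Also on the platelet list, Pf4 had 2 to 14 counts and Ppbp 0 to 8.

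The 12 endothelial markers summed to 368 to 403 CPM in Trp, 351 to 354 CPM in IPA and 351 to 432 CPM in HFD, and none passed. Their median log2 change was -0.32 in Trp and -0.32 in IPA. In Trp 8 of the 12 were lower, 3 of them at an unadjusted p under 0.05 (5.54% of all genes), and 1 of the 12 lay below all HFD libraries (7.43% of all genes). In IPA 10 of the 12 were lower, 6 of them at an unadjusted p under 0.05 (5.46% of all genes), and 7 of the 12 lay below all HFD libraries (8.01% of all genes). Itm2a lay below all HFD libraries in both groups, at 57.9 to 76.7 CPM in Trp, 62.0 to 76.4 CPM in IPA and 77.9 to 101 CPM in HFD. Above all HFD libraries lay 2 of the 12 in Trp (8.06% of all genes) and 1 in IPA (7.19% of all genes). The glucose transporter Slc2a1 was above all HFD libraries in both groups, at 92.1 to 115 CPM in Trp, 95.2 to 104 CPM in IPA and 61.0 to 91.9 CPM in HFD. The 10 mural cell markers summed to 140 to 182 CPM in Trp, 124 to 145 CPM in IPA and 158 to 205 CPM in HFD, with none past the threshold. Of the 10, 7 were lower in Trp, 1 of them at an unadjusted p under 0.05 (5.54% of all genes, edgeR). In Trp 0 of the 10 lay below all HFD libraries (7.43% of all genes). In IPA 9 were lower, 6 of them at an unadjusted p under 0.05 (5.46% of all genes), and 5 lay below all HFD libraries (8.01% of all genes). The part of these vascular markers in the globin result was not tested. Against the globin mean, r is given for single genes, of the 12 endothelial markers only Cldn5 and Pecam1, and does not describe the lists. Over 9 libraries r was 0.351 for Cldn5, 0.271 for Pecam1, 0.864 for the smooth muscle actin Acta2 and -0.76 for the striatal dopamine receptor Drd1. Without HFD 3 these were 0.513 for Cldn5, 0.291 for Pecam1, 0.510 for Acta2 and -0.17 for Drd1. None passed either among markers of choroid plexus, at 225 to 2058 CPM in Trp, 617 to 1706 CPM in IPA and 321 to 1136 CPM in HFD, or of thalamus and habenula, at 269 to 391 CPM in Trp, 210 to 380 CPM in IPA and 260 to 634 CPM in HFD. The highest thalamus and habenula value was that of HFD 3.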

How the data were processed

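Polyadenylated RNA was sequenced in 9 libraries. Per the file headers, the deposited table holds whole-number counts per gene and library, unscaled, and FPKM, which the authors scaled by gene length and sequencing depth. They also deposited log2 fold changes, p-values, q-values and calls for Trp and IPA against HFD, and their test is not given in the sources used here. StringTie 2.1.3b and mm10 are named per the submitters' processing notes. All library columns were matched to samples, with 0 left over. The table's coordinates differ from GENCODE M21 at most genes (95.9% have the same chromosome and length at another start, 2.71% the same position), so sequence positions are those of GRCm38, not of the table.

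Counts were tested in R 4.3.3 with edgeR 4.0.16 (filterByExpr with a minimum count of 10, TMM, robust quasi-likelihood fit, group means from all 9 libraries, no block). P-values are two-sided and Benjamini-Hochberg adjusted over all 18690 genes, with a threshold of 0.05. CPM use TMM-adjusted library sizes, and correlations use log2 CPM with a prior count of 2. Shares have exact Clopper-Pearson 95% intervals, and the limit for 0 is 3 counts, both for counting error only. With 3 libraries a group, 0.1 is the smallest p an exact permutation test can give. Alternatives used DESeq2 1.42.0, limma 3.58.1 on log2 FPKM with pseudocounts of 0.5, 0.1 or 1 (keeping genes with 1 FPKM or more in 3 or more libraries, or all genes), scaling by RLE or by the upper quartile, no count minimum, the 6 libraries compared, a replicate block, and each library left out. The code was tested on simulated data. Figures used matplotlib 3.10.9.

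The 7 genes and the lists were chosen with earlier results of these data known. Named besides the 7 were the few genes with the smallest p, and those that passed, in each list of globin, haem and red cell genes and of relatives of Slc4a1 and Bpgm. Also named were the 10 genes with FPKM of at least 1 most correlated with the mean of the 4 globins, without predicted genes and pseudogenes. Genes given only as level checks of a cell type were chosen after their values were seen.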

Additional observations from a re-analysis of the deposited data

How the results depend on the processing

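The globin genes and Alas2 were lower in Trp and in IPA than in HFD under all 19 alternatives run for each. Their calls depended on the test: 3 members passed in Trp and 2 in IPA with DESeq2 (alpha copies summed -1.73 in Trp, adjusted p = 0.0385, and -1.90 in IPA, adjusted p = 0.0238), and with a library left out 0 to 2 members passed in Trp. Genes called in Trp numbered 64, against 291 with DESeq2, 97 with no filter, 18 with limma with no filter, 8 with the 6 libraries compared and 13 to 323 with a library left out. In IPA they numbered 1, against 160 with DESeq2, 6 with no filter, 2 with the 6 libraries and 0 to 52 with a library left out. In Trp against IPA they numbered 0, against 15 with DESeq2, 3 with no filter, 2 with limma at each pseudocount, 1 with limma with no filter and 0 to 1 with a library left out.

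Same-numbered libraries did not deviate together (r of -0.196 to 0.0479 over 9 pairs, and 1 of 9 libraries correlated best with its own number). The numbers thus gave no sign of pairing. Deviations from a mean of 3 libraries depend on each other, so this check cannot exclude a pairing or a shared batch. With the replicate block 23 genes were called in Trp and 0 in IPA, and no member.

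Signs near 0 turned. Bpgm in Trp against HFD was 0.0163 without HFD 3 and down to -0.17 without another library. In Trp against IPA, limma gave Hbb-bs 0.0459, 0.0460 and 0.0457 and Hbb-bt 0.0373, 0.0375 and 0.0371 at pseudocounts of 0.5, 0.1 and 1, and 0.0459 and 0.0373 with no filter. Without a library, Hbb-bs ranged from -0.21 to 0.17 (0.14 without Trp 3), Hbb-bt from -0.20 to 0.18 (0.17 without IPA 2), the summed beta count from -0.21 to 0.17 (0.15 without Trp 3), and Hba-a2 from -0.0115 to 0.31. The causes were not tested. Depth limits Slc4a1, at 0 to 27 counts.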
